A study of Homo sapiens with 18 samples.

Results

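Mitophagy receptors and autophagy adaptors are the proteins that mark a mitochondrion or another cargo for engulfment, hold it to the growing autophagosome and start or shape that membrane. The 10 genes described here were taken by symbol from the whole transcriptome table of the series, which lists 38055 genes, and all 10 were found: BNIP3, BNIP3L, FUNDC1, PINK1, SQSTM1, NBR1, MAP1LC3B, GABARAPL1, ULK1 and BECN1. The cells were wild-type HCT116, an established human colorectal carcinoma line of epithelial type, kept in McCoy's medium with fetal bovine serum and given no treatment. They were harvested on day 3, at 50% confluency, or on day 5, at 250% confluency, with 3 libraries per day that the labels call biological replicates, and day 7 whole transcriptome values were not analysed here. The study asked how growth to high density changes Argonaute localization and the levels of its target RNAs. Every group was the same line, so the values describe 1 line, and days in culture and density rose together and cannot be told apart.

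In macroautophagy the ULK1 kinase complex starts a new membrane, the class III PI3 kinase complex around BECN1 marks it with a lipid, and ATG8 proteins such as MAP1LC3B and GABARAPL1 are joined to it. Cargo receptors carry a short motif that binds ATG8 proteins. Mitochondria are taken up by way of receptors that sit in their outer membrane (BNIP3, BNIP3L, FUNDC1) or through PINK1, a kinase that coats damaged mitochondria with phosphorylated ubiquitin, which adaptors such as SQSTM1 and NBR1 can bind. BNIP3 and BNIP3L are also known as targets of hypoxia-inducible factors, whose binding sites share the core letters ACGTG or GCGTG.

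These core letters were looked for in the 250 bases before the RefSeq start of each gene, since the largest rises were those of BNIP3L and BNIP3. RefSeq windows (GRCh38.p14) were matched for 8 of the 10 genes, and BNIP3L and PINK1 had none. Of all 35116 promoter windows of this length, 43.2% held ACGTG or GCGTG on either strand. BNIP3 held 5 separate stretches, a number reached by 0.604% of windows. MAP1LC3B held 4 (at least 4 in 1.76% of windows), ULK1 held 1 and both windows of NBR1 held 1 each, while those of SQSTM1, GABARAPL1, BECN1 and FUNDC1 held 0. One of the BNIP3 stretches is CACGTG, the E-box palindrome, which contains ACGTG on both strands and which 6.345% of windows hold. Genes that held 0 went both ways: SQSTM1 and GABARAPL1 rose, while BECN1 and FUNDC1 fell. The parts that carry the stretches in BNIP3 and ULK1 are printed 5′ to 3′ on the strand of the gene with a window of FUNDC1, which held 0, beside them. Capitals mark the matches, in which CACGC is GCGTG read on the other strand. BNIP3 is shown on 84 bases that end 80 bases before its start (chr10:131982003-131982086, minus strand), ULK1 on 45 bases that end 41 before its start (chr12:131894537-131894581, plus strand) and FUNDC1 for the last 120 bases (chrX:44542860-44542979, minus strand).
BNIP3: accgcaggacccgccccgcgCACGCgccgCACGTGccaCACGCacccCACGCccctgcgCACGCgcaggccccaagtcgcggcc
ULK1: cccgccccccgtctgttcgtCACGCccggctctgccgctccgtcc
FUNDC1: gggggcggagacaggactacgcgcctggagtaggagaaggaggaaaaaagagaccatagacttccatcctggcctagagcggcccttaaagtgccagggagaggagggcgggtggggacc
A match describes letters only, and no binding was measured.

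The libraries held between 27470978 and 56689369 reads on genes, recovered from the deposited values, and each of the 10 genes had 247 to 9214 reads per library. Levels below are the authors' normalized read counts, and a fold change is on the log2(value + 1) scale unless it is called a ratio of means. The coefficient of variation was larger on day 3 than on day 5 for 10 of the 10 genes. It was 4.64 to 19.5% on day 3 and 2.54 to 9.56% on day 5. The SD itself was larger on day 3 for 6 of the 10 genes. Day 3 replicate 3, the shallowest library, held the highest day 3 value of 8 of the 10 genes, so values without it are given for some genes and ratios. Its normalized values over all listed genes also had the largest sum of day 3, 38942641 against 34008467 and 35043456 in replicates 1 and 2. The summed level of 5 epithelial markers went from 30356 to 45057 on day 3 to 67669 to 69918 on day 5. EPCAM stayed at 6932 to 7403 in every library, but the other 4 were called higher in limma. Their log2 fold changes were 2.63 for CDH1 (mean 637 to 3940), 1.78 for CLDN3, 1.05 for KRT8 and 0.93 for KRT18. Of 4 colonocyte markers CDX1, VIL1 and CDH17 were near 0 (at most 5.18), while CDX2 went from 208 to 247 on day 3 to 292 to 323 on day 5. Summed fibroblast markers went from 513 to 594 to 1114 to 1181, nearly all of it COL1A1, with DCN at most 4.33 and 0 in every day 5 library. Endothelial markers summed to 7.09 to 11.4 and then 19.7 to 31.5, nearly all KDR with CDH5 at most 1.24, and leukocyte markers to at most 9.92 with PTPRC at most 2.14. The part of these markers in the results was not tested. In bulk samples, a change in the number of cells of a kind and a change in the RNA per cell cannot be told apart.

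All 10 genes differed between the days in limma with Benjamini-Hochberg adjustment at 0.05, 8 higher and 2 lower on day 5. Day 5 differed from day 3 for 56.9% of the 20129 genes tested, with 29.3% higher and 27.6% lower. The libraries of the days did not overlap for any of the 10 genes, against 65% of all genes tested (33.4% with day 5 above and 31.7% with day 5 below). BNIP3, BNIP3L, PINK1 and ULK1 rose at least 2-fold, as 10.2% of all genes did, and FUNDC1 fell at least 2-fold, as 7.6% did; the other 5 changed by less. The median log2 fold change of the 10 genes was 0.63, and that of all genes tested was 0.01. Without day 3 replicate 3, the count was again 10 (8 higher, 2 lower), and without day 3 replicate 2, day 5 replicate 2 or day 5 replicate 3 it was 9, since BECN1 was not called.

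**Figure D1:**
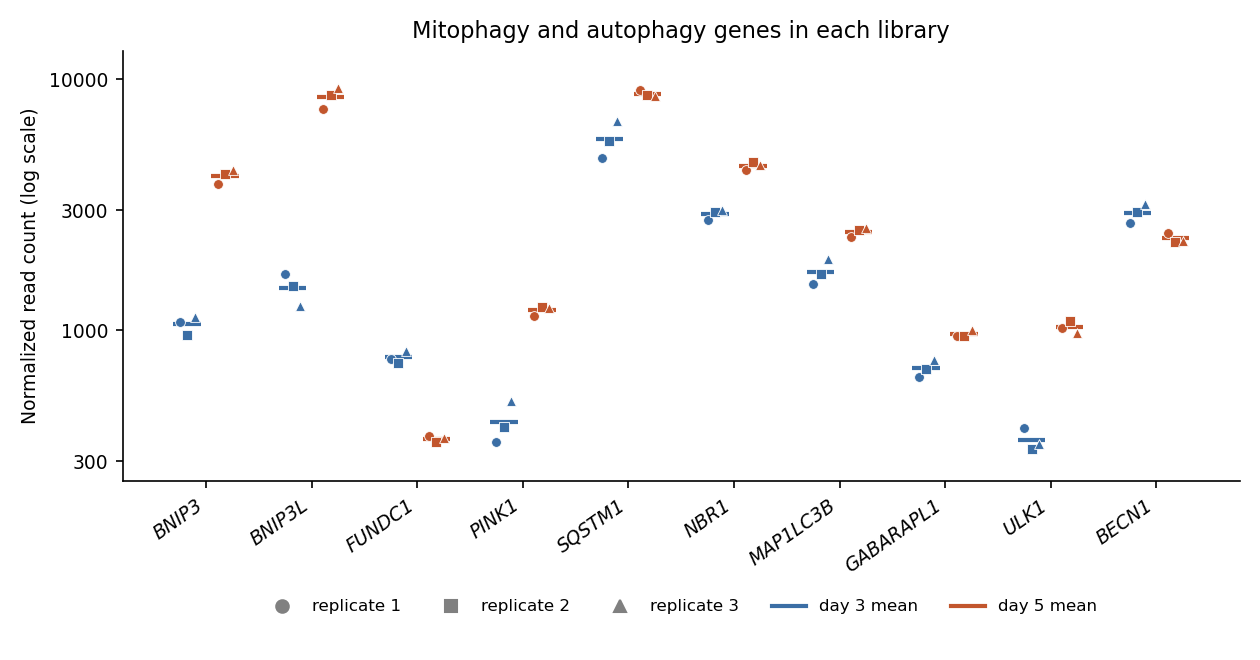
Normalized read count (vertical axis, log scale) of each of the 10 genes in the 3 day 3 libraries (blue) and the 3 day 5 libraries (orange); markers give the replicate and bars the mean. The clouds of the days are apart for all 10 genes, with BNIP3L moving furthest up (1473 to 8499 on average) and FUNDC1 furthest down (779 to 369).

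The receptors of the outer mitochondrial membrane moved in opposite directions. The paralogs BNIP3 and BNIP3L rose several-fold, while FUNDC1 fell to 0.474 of its day 3 mean. BNIP3L (ENSG00000104765, chr8:26383054-26505636, plus strand) was at 1671, 1498 and 1250.3 on day 3 and at 7607, 8692 and 9197 on day 5. Every day 5 library lay far above every day 3 library, and the lowest value was in day 3 replicate 3. Its mean went from 1473 ± 211 to 8499 ± 813 (SD, n = 3 per day), a ratio of means of 5.77. The log2 fold change was 2.53 with an SE of 0.14 (95% interval 2.20 to 2.87, limma adjusted p = 0.000167), and without day 3 replicate 3 it was 2.42. By size of rise, BNIP3L stood at place 98 among the 20129 genes tested.

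BNIP3 (ENSG00000176171, chr10:131967684-131981967, minus strand) was at 1081, 959 and 1128 on day 3 and at 3817, 4183 and 4331 on day 5. The days were clearly apart, and within each the libraries lay close together. The mean rose from 1056 ± 87.5 to 4111 ± 265 (SD, n = 3 per day), a ratio of means of 3.89. Its log2 fold change of 1.96 had an SE of 0.10 (95% interval 1.72 to 2.20, limma adjusted p = 0.000156). FUNDC1 (ENSG00000069509, chrX:44523639-44542859, minus strand) was at 770.0, 742 and 825 on day 3 and at 377, 359 and 372 on day 5. All day 5 libraries were low and nearly alike, and all day 3 libraries were high. Its mean fell from 779 ± 42.1 to 369 ± 9.40 (SD, n = 3 per day), to 0.474 of the day 3 mean, with a log2 fold change of -1.07 and an SE of 0.08 (95% interval -1.26 to -0.88, limma adjusted p = 0.000238). FUNDC2, the paralog of FUNDC1, which was chosen after its value was seen, fell too, from 1196 ± 93.8 to 639 ± 31.3 (SD, n = 3 per day), and its log2 fold change was -0.90 (limma adjusted p = 0.000531).

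The balance of the paralogs BNIP3L and BNIP3 was compared as well. The ratio of BNIP3L to BNIP3 reads within a library, which does not depend on scaling between libraries, was 1.55, 1.56 and 1.11 on day 3 and 1.99, 2.08 and 2.12 on day 5. Its mean was 1.41 ± 0.258 and then 2.07 ± 0.0664 (SD, n = 3 per day), so that the day 5 libraries were all above the day 3 libraries. The two-sided exact permutation test gave p = 0.1, below which a test with 3 libraries per day cannot go, and 0.3 after adjustment over 3 ratios, so this design cannot place the difference past the threshold. On the log2 scale the difference was 0.57 with an SE of 0.16, and 0.41 without day 3 replicate 3, the library with the lowest ratio.

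Some listed genes share sequence or a locus with these receptors. BNIP3P1 and BNIP3P4, processed copies of BNIP3, were at means of 22.4 and 18.4 on day 3 and of 82.2 and 44.7 on day 5, which on the log2 scale are rises of 1.82 and 1.30 (limma adjusted p = 0.000384 and 0.00855). How the counting divided reads between BNIP3 and its copies is not given in the sources used here, and the values of BNIP3P1 and BNIP3P4 are therefore uncertain. PNMA2, which shares 330 exonic bases with BNIP3L on the opposite strand, was at 15.59 to 31.61 on day 3 and 73.75 to 102.5 on day 5. Inside the BNIP3L locus on the same strand lie the noncoding RNAs ENSG00000253430 and ENSG00000254362, which share no exonic base with BNIP3L. ENSG00000253430 went from 1.42 to 5.27 on day 3 to 25.9 to 38.0 on day 5 (range over 3 libraries each), and ENSG00000254362 from 2.47 to 6.15 to 28.2 to 50.4. Both passed the minimum for low values through day 5 alone, so no test is given for them, and reads from BNIP3L introns cannot be told apart from theirs in these values.

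PINK1, the kinase that marks damaged mitochondria, rose at least 2-fold. PINK1 (ENSG00000158828, chr1:20633458-20651511, plus strand) was at 358, 409 and 522 on day 3 and at 1141, 1237 and 1229 on day 5. The day 3 libraries were spread widely, with replicate 3 highest, and none came near the day 5 libraries. The mean went from 430 ± 83.6 to 1202 ± 53.3 (SD, n = 3 per day), a ratio of means of 2.80, and the log2 fold change was 1.50 with an SE of 0.15 (95% interval 1.13 to 1.86, limma adjusted p = 0.000509). Without day 3 replicate 3 it was 1.65, and without day 3 replicate 1 it was 1.38. PINK1-AS, an antisense RNA that shares 1907 exonic bases with PINK1 on the opposite strand, was at 289 to 360 on day 3 and 459 to 484.5 on day 5, and its log2 fold change was 0.57 (limma adjusted p = 0.00513). The authors' methods describe counting of reads of 1 strand only, but which tool wrote the deposited values is not given in the sources used here, so reads of PINK1 and PINK1-AS may not be fully apart. GABARAPL1-AS1, which shares 329 exonic bases with GABARAPL1 on the opposite strand, was at most 1.76 in any library, and CNTD1, which shares 795 with BECN1 in the same way, at most 7.25. PSME3, which shares 300 with BECN1 on the opposite strand, was at 4935 to 6433 on day 3 and 4589 to 5337 on day 5. These values lie above those of BECN1, so reads of BECN1 and PSME3 may not be fully apart either.

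The ubiquitin-binding adaptors SQSTM1 and NBR1 rose by about 1.5 times each. SQSTM1 (ENSG00000161011, chr5:179806398-179838078, plus strand), which encodes p62, an adaptor that binds ubiquitin and ATG8 proteins and is itself degraded with its cargo, was at 4834, 5696 and 6826 on day 3 and at 9082, 8655 and 8552 on day 5. The day 3 libraries differed widely, the day 5 libraries hardly, and the highest day 3 library stayed below the lowest day 5 library. Its mean went from 5785 ± 999 to 8763 ± 281 (SD, n = 3 per day), a ratio of means of 1.51, with a log2 fold change of 0.61 and an SE of 0.14 (95% interval 0.28 to 0.95, limma adjusted p = 0.0103). That fold change was 0.74 without day 3 replicate 3 and 0.49 without day 3 replicate 1. NBR1 (ENSG00000188554, chr17:43170481-43211689, plus strand), an adaptor of protein aggregates and peroxisomes, was at 2754, 2946 and 3014 on day 3 and at 4356, 4674 and 4558 on day 5. Both sets of libraries were tight and well apart. The NBR1 mean rose from 2905 ± 135 to 4529.6 ± 161 (SD, n = 3 per day), 1.56 times, and the log2 fold change was 0.64 with an SE of 0.08 (95% interval 0.45 to 0.83, limma adjusted p = 0.000965). MRNIP, which shares 1582 exonic bases with SQSTM1 on the opposite strand, was at 699 to 757 on day 3 and 885 to 946 on day 5. The ratio of NBR1 to SQSTM1 reads was 0.570, 0.517 and 0.442 on day 3 and 0.480, 0.540 and 0.533 on day 5. These ratios overlapped, with a log2 difference of 0.03 and an SE of 0.12 (two-sided exact permutation p = 0.8), and the sign turned without day 3 replicate 3 (-0.07) or without day 5 replicate 2 (-0.0031).

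MAP1LC3B and GABARAPL1 encode ATG8 proteins, which are joined to the autophagosome membrane and hold the receptors, and both rose by less than 2-fold. MAP1LC3B (ENSG00000140941, chr16:87383953-87404779, plus strand), which encodes LC3B, the usual marker of autophagosomes, was at 1529, 1677 and 1928 on day 3 and at 2357, 2500.5 and 2561 on day 5. The gap between the days was larger than the spread within either. Its mean went from 1711 ± 202 to 2473 ± 105 (SD, n = 3 per day), a ratio of means of 1.44, with a log2 fold change of 0.54 and an SE of 0.11 (95% interval 0.27 to 0.80, limma adjusted p = 0.00677). That fold change was 0.63 without day 3 replicate 3 and 0.46 without day 3 replicate 1. GABARAPL1 (ENSG00000139112, chr12:10212458-10223128, plus strand), of the GABARAP branch of the family, was at 651, 702 and 757 on day 3 and at 949, 943 and 1005 on day 5. It had the smallest rise of the 8 genes that rose, and its days were still apart. The GABARAPL1 mean went from 703 ± 53.2 to 966 ± 34.4 (SD, n = 3 per day), a ratio of means of 1.37, and the log2 fold change was 0.46 with an SE of 0.09 (95% interval 0.25 to 0.67, limma adjusted p = 0.00553). GABARAPL1 to MAP1LC3B reads stood at 0.426, 0.418 and 0.393 on day 3 and at 0.403, 0.377 and 0.393 on day 5, which overlap, with a log2 difference of -0.08 and an SE of 0.04 (two-sided exact permutation p = 0.2).

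**Figure D2:**
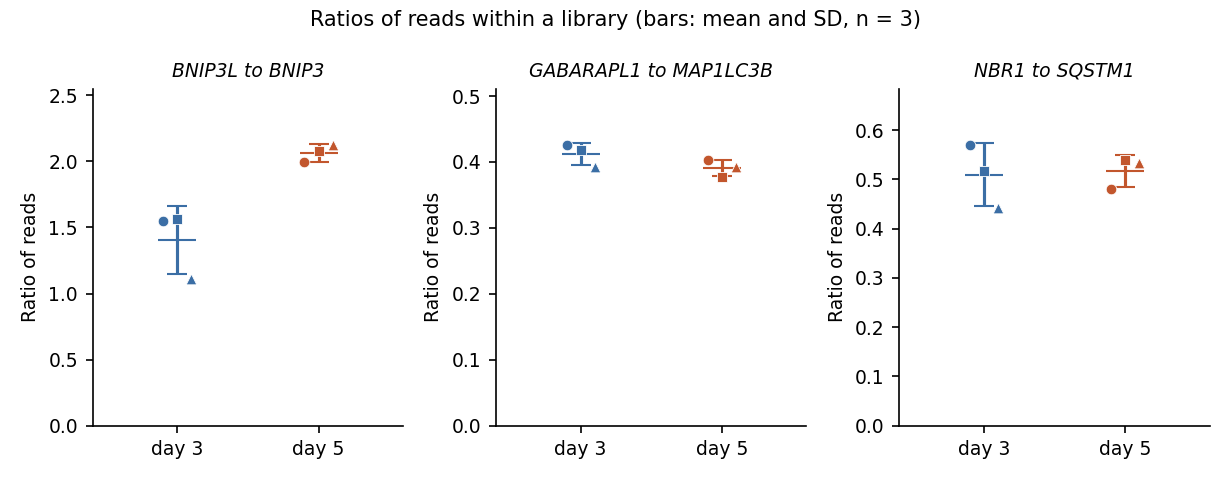
Ratio of the reads of 2 related genes within each library (vertical axis, from 0) on day 3 and day 5; markers are replicates, bars the mean and SD of 3 libraries. Of the 3 ratios, that of BNIP3L to BNIP3 has no overlap between the days (1.11 to 1.56 against 1.99 to 2.12), while those of GABARAPL1 to MAP1LC3B and of NBR1 to SQSTM1 overlap.

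The genes that act at the start of autophagosome formation parted: ULK1 rose and BECN1 fell slightly. ULK1 (ENSG00000177169, chr12:131894622-131923150, plus strand), the kinase that starts the process and that mTORC1 holds in check, was at 407, 334 and 350.1 on day 3 and at 1022, 1088 and 973 on day 5. Each day 5 library was far above all day 3 libraries. The mean rose from 364 ± 37.9 to 1028 ± 57.5 (SD, n = 3 per day), a ratio of means of 2.83, with a log2 fold change of 1.50 and an SE of 0.10 (95% interval 1.25 to 1.75, limma adjusted p = 0.000227). BECN1 (ENSG00000126581, chr17:42810134-42833350, minus strand), a subunit of the class III PI3 kinase complex that BCL2 can bind, was at 2666, 2969 and 3181 on day 3 and at 2433, 2255 and 2273 on day 5. The days did not overlap, but the lowest day 3 library and the highest day 5 library were close. Its mean went from 2939 ± 259 to 2320.2 ± 97.7 (SD, n = 3 per day), to 0.790 of the day 3 mean, and the log2 fold change was -0.34 with an SE of 0.09 (95% interval -0.57 to -0.11, limma adjusted p = 0.0239). This call was lost with no filter on low values (limma adjusted p = 0.109) and without day 3 replicate 2 (-0.33, 0.0707), day 5 replicate 2 (-0.32, 0.0767) or day 5 replicate 3 (-0.32, 0.069). The direction held in each. Without day 3 replicate 3 the call stayed (-0.28, limma adjusted p = 0.0434).

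**Figure D3:**
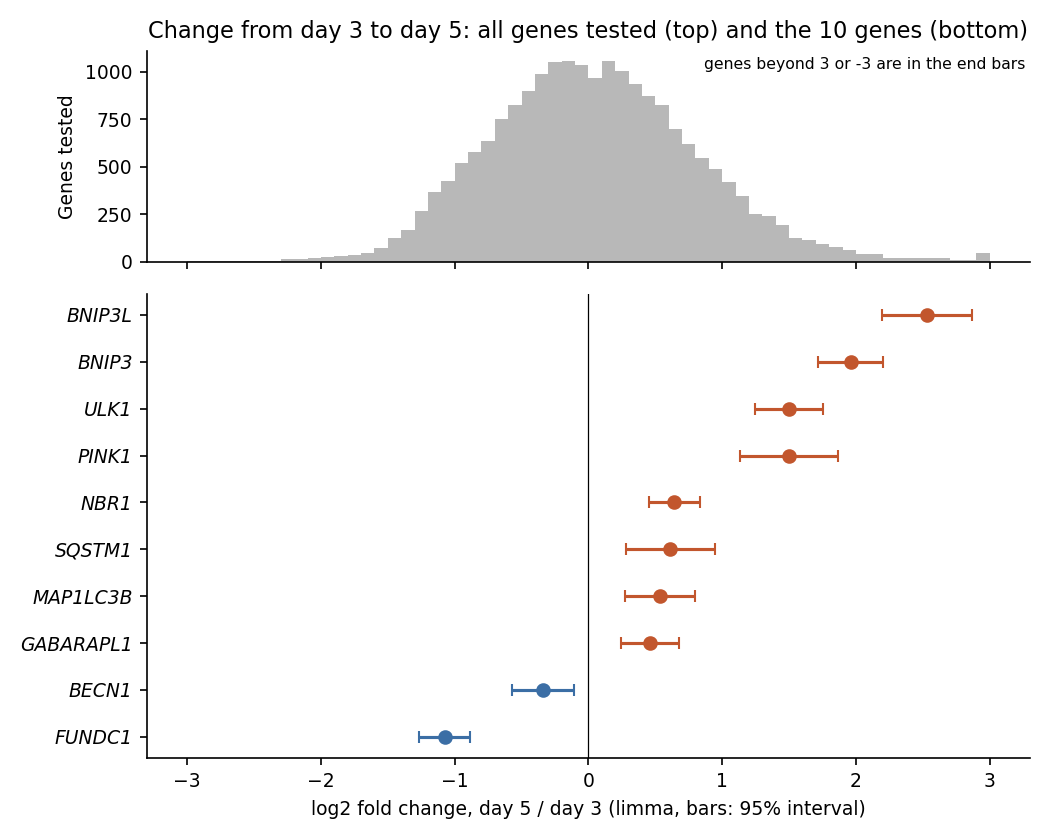
Log2 fold change from day 3 to day 5 (horizontal axis) of all 20129 genes tested, as a histogram of gene numbers with the most extreme genes gathered in the end bars (top), and of the 10 genes with 95% intervals from limma (bottom). BNIP3L (2.53), BNIP3 (1.96), ULK1 (1.50) and PINK1 (1.50) stand in the right tail, 4 genes lie between 0.46 and 0.64, and BECN1 (-0.34) and FUNDC1 (-1.07) are below 0.

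The order of the 10 genes by level changed between the days. Per kilobase of all annotated exons (GENCODE), the normalized count on day 3 was highest for SQSTM1 at 768 ± 133 (SD, n = 3), followed by FUNDC1 at 620 ± 33.5, whose libraries overlapped those of SQSTM1, and by BECN1 at 458 ± 40.4. BNIP3L (355), NBR1 (346) and MAP1LC3B (340) came next and were not separated, and BNIP3 (261), GABARAPL1 (173), PINK1 (88.9) and ULK1 (47.7) followed, each without overlap with the next. On day 5 BNIP3L led at 2048 ± 196, ahead of SQSTM1 at 1163 ± 37.3 and BNIP3 at 1015 ± 65.3, while FUNDC1 had gone from place 2 to place 7, at 294 ± 7.48. PINK1 (249) and GABARAPL1 (238) overlapped on day 5, and ULK1 (135) was lowest again. The order on both days depended on the length used. Per kilobase of the canonical transcript, a length added after the data were seen, SQSTM1 (3085) stood ahead of BNIP3 (2666) and BNIP3L (2462) on day 5, and the last 2 overlapped. By that length BECN1 was at place 2 and BNIP3L at place 7 on day 3. FUNDC1 went from place 4, where it overlapped MAP1LC3B and BNIP3, to place 9. ULK1 was lowest on both days by both lengths.

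For the 3 genes with the largest changes (BNIP3L, BNIP3 and ULK1), the tested genes with the most similar values were found as the smallest root mean square difference over the 6 libraries on the log2 scale, each gene centred on its day 3 mean. For BNIP3L they included PDK1, the kinase that inhibits pyruvate dehydrogenase (difference 0.0561, log2 fold change 2.57), and PPFIA4 (0.0865). BNIP3 was most like THSD4 (0.0497), PLOD2, a collagen lysyl hydroxylase (0.0505, log2 fold change 1.98) and TJP3, a tight junction protein (0.0897). ULK1 was most like MXD4, a partner of MAX that represses transcription (0.0538), REPS2 (0.0684) and CREB5 (0.0744). CREB5 was near the minimum for low values, at means of 6.09 on day 3 and 18.45 on day 5, so its likeness is uncertain. Likeness over 6 libraries of 2 days is mainly likeness in the size of the change and says nothing of shared control.

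The rest of the pathway was described with 94 other genes in 10 lists by role, of which 92 were tested: 42 rose, 22 fell and 28 did not pass the limma test. That is 69.6% called, beside 56.9% of all genes, and the median log2 fold change over the lists was 0.20. With each library left out in turn, 54 to 64 were called in place of 64. Single lists are small, differences between them were not tested, and their counts are to be read against the 29.3% of all genes that rose and the 27.6% that fell.

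In the initiation complex 3 of 5 rose and 0 fell, with a median log2 fold change of 0.25. ULK2, the paralog of ULK1, rose from 482 ± 52.0 to 743 ± 34.1 (SD, n = 3 per day), by 0.63 on the log2 scale (limma adjusted p = 0.00334). Among the 7 partners of BECN1 in the class III PI3 kinase complex 3 rose and 1 fell (median -0.09). RUBCN, an inhibitor of that complex, rose by 0.61 and NRBF2, one of its activators, went down at -0.61 on the log2 scale (limma adjusted p = 0.00171 and 0.00254). Of the 10 genes of membrane supply 6 rose and 0 fell (median 0.47), led by ATG9B, a paralog of the membrane scramblase ATG9A, at 16.6 ± 6.20 on day 3 and 77.7 ± 12.7 on day 5 (log2 fold change 2.22, limma adjusted p = 0.0014).

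Of the 11 genes that conjugate ATG8 proteins to the membrane 2 rose and 4 fell (median -0.08), a share called of 54.5%, near the 56.9% of all genes. ATG4C, a protease that trims and releases ATG8 proteins, went from 1005 ± 68.4 to 464 ± 37.1 (SD, n = 3 per day; log2 fold change -1.11, limma adjusted p = 0.000376). The other 3 that fell, ATG4A (-1.05), ATG3 (-0.85) and ATG5 (-0.85), were named after their values were seen; ATG3 is the E2-like enzyme and ATG5 a part of the E3-like complex. ATG16L2 had the largest rise of the list at 0.42 (limma adjusted p = 0.0187), a call that was lost with no filter on low values (0.0802) and without day 5 replicate 2 (0.0566) or day 5 replicate 3 (0.0544). Among the other ATG8 genes 3 of 5 were tested and 1 rose. It was MAP1LC3B2, a near-identical copy of MAP1LC3B whose reads may be divided with it, at 20.2 ± 7.68 and 42.4 ± 12.7 (SD, n = 3 per day; log2 fold change 1.05, limma adjusted p = 0.0402). The MAP1LC3B2 call was lost with no filter on low values (0.101) and without day 3 replicate 2 (0.0836), day 3 replicate 3 (0.0908), day 5 replicate 2 (0.107) or day 5 replicate 3 (0.103). GABARAP was at 56.2 to 67.4 on day 3 and 65.4 to 85.9 on day 5, and it shares 691 exonic bases with another coding gene on its strand, so its level is uncertain.

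Among the 7 other cargo adaptors 4 rose and 2 fell (median 0.51). CALCOCO1, an adaptor for the endoplasmic reticulum and Golgi, rose from 496 ± 25.4 to 1372 ± 100.1 (SD, n = 3 per day), by 1.47 on the log2 scale (limma adjusted p = 0.000193). TBK1, the kinase that phosphorylates adaptors, went the other way at -0.80 on the log2 scale (limma adjusted p = 0.000544). The other genes of mitophagy moved both ways, 5 of 15 up and 6 down (median -0.11). CISD1, an iron-sulfur protein of the outer mitochondrial membrane, fell from 1136 ± 31.8 to 440 ± 6.66 (SD, n = 3 per day; log2 fold change -1.37, limma adjusted p = 0.000156).

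Receptors for the endoplasmic reticulum numbered 6, of which 2 rose and 2 fell (median -0.12), with ATL3 at 0.65 and SEC62 at -0.77 on the log2 scale (limma adjusted p = 0.000895 and 0.000581). In the list of autophagosome fusion 3 of 7 rose and 1 fell (median -0.23), with the tether EPG5 at 0.78 and the SNARE STX17 at -0.43 (limma adjusted p = 0.000461 and 0.00407). Upstream control held the most calls, 13 of 21 up and 6 down (median 0.51). DDIT4, an inhibitor of mTORC1, was at 506 ± 19.7 on day 3 and 11395 ± 726 on day 5 (SD, n = 3 per day), with a log2 fold change of 4.49, and ATF4, a transcription factor of the integrated stress response, stood at -0.66 (limma adjusted p = 5.6e-05 and 0.00274). Genes of hypoxia-inducible factor subunits, named after their values were seen, parted: HIF1A fell (-0.63, limma adjusted p = 0.0021) and EPAS1, which encodes HIF-2 alpha, rose (2.00, limma adjusted p = 0.000235).

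**Figure D4:**
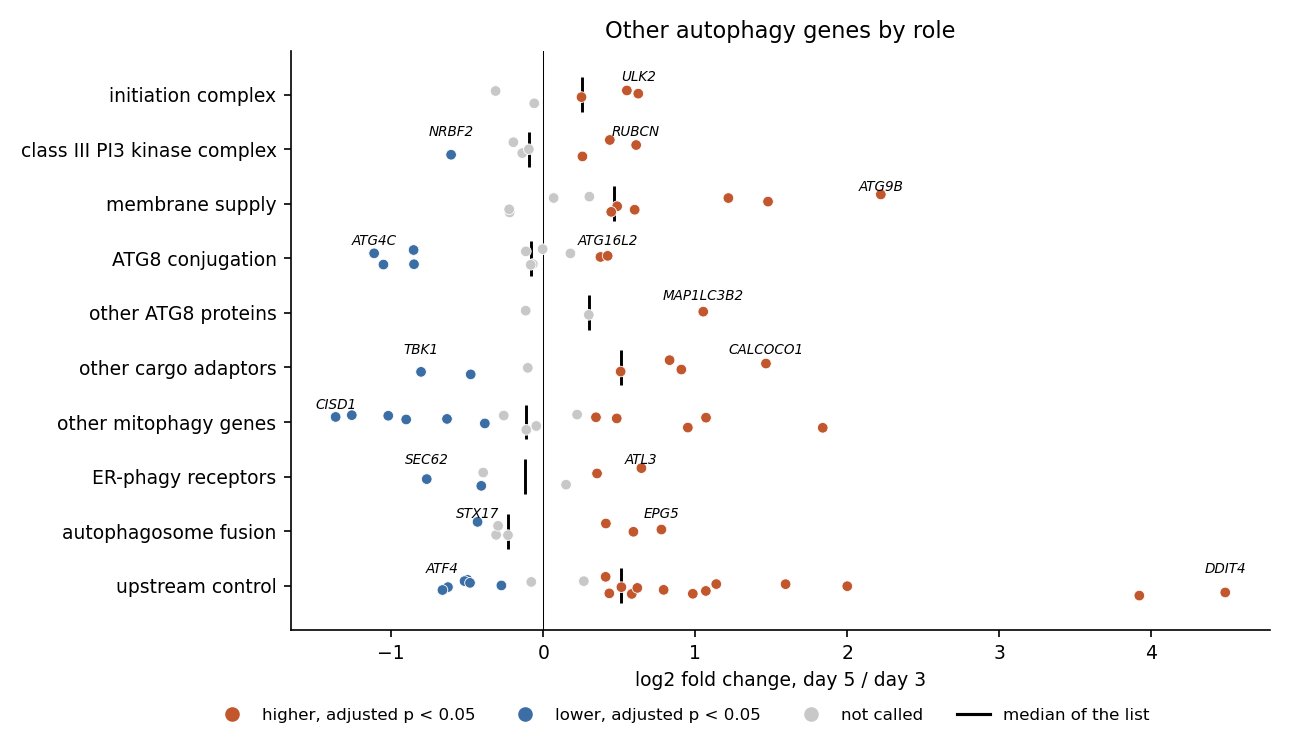
Log2 fold change from day 3 to day 5 (horizontal axis) of the 92 tested genes of the 10 role lists (rows); orange points rose, blue points fell, grey points did not pass the limma test, and bars are list medians. Initiation holds 3 rises among 5 genes and membrane supply 6 among 10, with 0 falls called in each. Of all genes tested, 29.3% rose and 27.6% fell. In these 2 lists ATG101, WIPI1 and VMP1 lay lower in all day 5 libraries without a call, and TMEM41B higher. ATG8 conjugation reaches down to ATG4C at -1.11, and DDIT4 lies furthest right at 4.49.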

How the data were processed

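Whole cell RNA was depleted of rRNA and sequenced with strand kept and with molecular identifiers, whose later use is not given in the sources used here. The authors trimmed reads (FastQC 0.11.8 and MultiQC 1.7 are in the submitters' processing notes), mapped them strand-specifically to Ensembl genes of hg38 and set TMM in CLC Genomics Workbench. The deposited signal values per gene and library were whole multiples of 1 read in 100% of cases (tolerance 0.01 read), so reads were recovered. The plan named limma for normalized values and edgeR for counts, and the table held normalized values. So limma (3.58.1, R 4.3.3) was fitted to log2(value + 1) of 20129 genes with at least 10 in at least 3 of 6 libraries. The limma fit used Benjamini-Hochberg adjustment over all these genes and a threshold of 0.05. It was tested on simulated data. p-values measure the spread between these libraries.

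Alternatives were a pseudocount of 0.1, no filter, library totals, the replicate number as a block, edgeR (4.0.16) and DESeq2 (1.42.0) on reads, and each library left out. Beside the 10 genes, the text names the largest rise and fall without overlap in each role list, the 3 nearest genes of the 3 strongest, and copies or overlapping genes; some of these are not reported here. Members and lists were chosen with earlier results of these data known. The authors' own fold changes and p-values, also in the table, and 9 small RNA libraries were not used. Loci come from GENCODE on GRCh38, motif searches and ratios from Python 3.11.15 (pandas 2.3.3, numpy 2.4.6, scipy 1.17.1), figures from matplotlib 3.10.9.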

Additional observations from a re-analysis of the deposited data

How the results depend on the processing

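Of the 10 genes, 9 kept their direction and their call under all 12 alternatives, with the highest adjusted p for SQSTM1 (0.0446). BECN1 was the exception: its log2 fold change of -0.34 was not called with no filter on low values (limma adjusted p = 0.109, -0.34), with the replicate number as a block (limma adjusted p = 0.0693, -0.34) or without some libraries (-0.41 to -0.28 over the 6 left out in turn). The BECN1 call stayed without day 3 replicate 1 (limma adjusted p = 0.014), day 3 replicate 3 (0.0434) or day 5 replicate 1 (0.0435). Fewer residual degrees of freedom remain under the block and with a library left out. The cause of the lost calls was not tested for any alternative. With the block, 9 of the 10 genes (all but BECN1), 10533 of all genes and 57 of the genes of the role lists were called. MAP1LC3B2 lost its call (limma adjusted p = 0.0873). No other call changed among the 10 genes and the genes with the largest rise or fall of each role list. The block was fitted to all genes tested, but its values for other genes named are not given here. Same-numbered libraries of the days did not deviate together (correlations of -0.011, 0.034 and 0.023 over 20129 genes), so the numbers are not taken as pairs. The NBR1 to SQSTM1 ratio, with no call, ranged from -0.0708 to 0.11 in log2 difference with each library left out, turning sign without day 3 replicate 3 (-0.0708) and without day 5 replicate 2 (-0.0031); the cause was not tested. Leaving out a library moved the genes called between 9780 and 11300; on the recovered reads edgeR called 12280 and DESeq2 11110. Dividing by library totals moved the median of all genes to 0.08 on the log2 scale and changed no call among the 10 genes. With 3 libraries a day and 247 reads or more behind each value, the number of libraries limits the tests of ratios, which cannot go below p = 0.1 in an exact permutation test.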
